A study of Mus musculus with 64 samples.

Results

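The genes described here had a low and flat level in fertilized eggs and 2-cell mouse embryos and a higher one in 4-cell embryos. They were chosen by that pattern: among probes with 1 gene symbol, those whose mean in 2-cell embryos lay within 0.5 log2 units of the mean in fertilized eggs, and whose mean in 4-cell embryos lay at least 1.5 log2 units above the mean in 2-cell embryos. Symbols of ribosomal, initiation factor, solute carrier, zinc finger, chaperone and related name families were dropped, which removed 5 probes. The module holds 53 probes of 52 genes, out of 4262 probes with 1 symbol and 22575 probes on the array. Prpf31 entered with 2 probes. Over the whole table, 188 probes of any annotation passed both thresholds.

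In the mouse, the fertilized egg runs at first on RNA and protein stored by the mother, and most of that RNA is cleared by the 2-cell stage. Transcription of the embryo's own genome begins weakly in the 1-cell embryo and strongly in the 2-cell embryo, and further genes become detectable during the following cleavages. The embryo then compacts, forms a morula and, as a blastocyst, holds an outer trophectoderm and an inner cell mass.

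Total RNA was measured on 64 arrays of 2 colours, with embryo RNA in 1 channel and a common control RNA in the other. A stage set of 28 arrays followed development with 4 arrays at each of 7 stages: unfertilized egg, fertilized egg, embryos of 2, 4 and 8 cells, morula and blastocyst. A treatment set of 36 arrays, read against a reference with another name, held 12 groups of 3 arrays: embryos given AM at 32, 43 and 54 h, AC at 32 and 43 h, CHX at 43 h, DMSO at 32 and 43 h, and controls at 21, 32, 43 and 54 h. By the labels, 21 h and 32 h embryos were at the early and the late 1-cell stage and 43 h and 54 h embryos at the early and the late 2-cell stage, so no 4-cell embryo was treated. AM is read here as α-amanitin, which blocks RNA polymerase II, AC as aphidicolin, which blocks DNA replication, and CHX as cycloheximide, which blocks translation. These readings come from general knowledge and not from the labels, which give no strain, dose, embryo number or starting point of the hours. Nothing says whether replicate arrays came from separate pools of embryos, so p-values measure only the spread between these arrays, which may be technical.

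All levels below are log2 ratios of embryo over reference with the median of each array set to 0, and a level of a probe is compared only with the same probe in other groups. Positive values are taken to mean that the embryo held more of the RNA than the reference, a direction that is likely but not settled: all 5 probes of the oocyte genes Bmp15, Btg4, Kit and Zp2 lay above the reference in unfertilized eggs, and 5 of 5 were lower in blastocysts, with a median of 0.86 in blastocysts and 3.04 in unfertilized eggs. The inner cell mass genes Gata4, Nanog and Zfp42 had a median over 5 probes of 1.37 in blastocysts and 0.25 in unfertilized eggs. Their probes did not move as one: in blastocysts they ranged from -0.62 to 4.39, and 1 lay below its unfertilized egg level. At both stages 3 of 5 lay above the reference. Fgfr2 was the only trophectoderm marker measured, with a median over 2 probes of 0.01 in blastocysts, and no cumulus or sperm marker was measured. Replicate arrays correlated with each other at 0.775 or more in the stage set and at 0.706 or more in the treatment set, and at most at 0.980.

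The stage arrays stood in 2 parts that no label names. The first part, 17 arrays, held unfertilized egg arrays 1 to 3, all fertilized egg, 2-cell and 4-cell arrays and morula arrays 1 and 2, and had 322 to 372 features at the upper limit of the scale per array. The second part, 11 arrays, held unfertilized egg array 4, all 8-cell and blastocyst arrays and morula arrays 3 and 4, with 69 to 312 such features. In the second part every array correlated positively with the difference of morula arrays 3 and 4 from arrays 1 and 2. Those of the first part all correlated negatively. The division is thus tied to the morula split, which is no separate evidence for it. For unfertilized eggs the comparison rests on 1 array in the second part. The members differed along this division inside both stages that it splits. Unfertilized egg array 4 differed from arrays 1 to 3 by a member median of -1.11 log2 units, with 49 of 53 members lower, where the median of all probes differed by -0.13 and 56.1% were lower. Morula arrays 3 and 4 differed from arrays 1 and 2 by -0.56, with 45 of 53 members lower, against -0.14 and 57.8% over all probes. Later stages set against 2-cell or 4-cell embryos therefore carry this division with them. Where the part is a block below, an offset between the parts is fitted for each probe. That offset comes only from unfertilized eggs and morulae, the stages with arrays in both parts. Their splits differ in size, so differences with the block are not corrected levels.

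Promoter sequences were at hand in RefSeq (mouse build GRCm38.p6) for 45 of the 52 genes, in 55 windows of 300 bases that run from 250 bases before a transcription start to 50 after it. Those of the 3 members with the largest difference between 4-cell and 2-cell embryos are shown, with matches to short motifs in capitals. G3bp1 encodes an RNA-binding protein of stress granules, and its window lies at chr11:55469502-55469801 on the plus strand. Map1lc3b encodes LC3B, a protein of the autophagosome membrane, at chr8:121590188-121590487 on the plus strand. Tmem37 encodes a small membrane protein related to calcium channel subunits, at chr1:120073731-120074030 on the minus strand. All are printed in the direction of transcription.
G3bp1: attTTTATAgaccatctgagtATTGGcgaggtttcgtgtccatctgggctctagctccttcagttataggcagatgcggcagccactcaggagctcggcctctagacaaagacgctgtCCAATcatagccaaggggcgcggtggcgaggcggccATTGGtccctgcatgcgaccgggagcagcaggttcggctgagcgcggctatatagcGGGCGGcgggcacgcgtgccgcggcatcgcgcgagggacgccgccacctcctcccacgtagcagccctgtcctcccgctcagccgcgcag
Map1lc3b: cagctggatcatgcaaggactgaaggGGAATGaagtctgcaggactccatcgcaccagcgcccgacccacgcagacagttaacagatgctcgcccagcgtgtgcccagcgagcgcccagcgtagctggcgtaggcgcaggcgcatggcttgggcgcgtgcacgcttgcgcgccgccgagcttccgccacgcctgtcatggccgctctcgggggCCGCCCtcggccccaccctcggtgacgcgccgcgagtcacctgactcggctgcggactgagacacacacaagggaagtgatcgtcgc
Tmem37: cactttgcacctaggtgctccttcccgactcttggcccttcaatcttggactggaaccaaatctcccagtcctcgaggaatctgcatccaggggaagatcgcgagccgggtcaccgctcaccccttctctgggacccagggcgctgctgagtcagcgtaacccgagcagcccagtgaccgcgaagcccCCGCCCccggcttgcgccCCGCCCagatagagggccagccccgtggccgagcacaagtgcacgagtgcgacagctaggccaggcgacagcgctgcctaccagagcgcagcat
The capitals mark the TATA box (TATAAA), the CCAAT box, the G-rich box GGGCGG and, in Map1lc3b, the run CATTCC, each on either strand, and no matches overlap. The G-rich box GGGCGG, or its reverse complement, was present in all 3 windows and in 70.9% of the 55 member windows, against 62.3% of 3296 windows of the genes with a probe of 1 symbol and 35.7% of all 32851 windows. CCAAT stood in 40.0% of the member windows and 37.1% of those of genes with a probe of 1 symbol, and TATAAA in 7.3% and 7.7%. The shares for the other motifs searched were 18.2% and 14.9% for CCGGAAG, 12.7% and 10.3% for CACGTG, 10.9% and 12% for CATTCC, 3.6% and 1.6% for the palindromic NRF1 motif, and 1.8% and 2.7% for AAGATGGCG. The members thus differed from all promoters mostly as the measured genes at large did. A match is a run of letters and not a shown binding site.

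The values that chose the module are a description and carry no test. The median over the 53 members, averaged over 4 arrays, was -1.57 ± 0.54 (SD) in unfertilized eggs, -1.54 ± 0.04 in fertilized eggs, -1.52 ± 0.61 in 2-cell embryos, 0.29 ± 0.15 in 4-cell embryos, -1.06 ± 0.07 in 8-cell embryos, -0.60 ± 0.47 in morulae and -0.82 ± 0.29 in blastocysts. By their group means, 31 of 53 members lay above the reference in 4-cell embryos. That number was 4 in unfertilized eggs, in fertilized eggs and in 2-cell embryos, 13 in 8-cell embryos, 17 in morulae and 14 in blastocysts. With the sign of the ratio turned, 22 members would lie above the reference in 4-cell embryos and 36 to 49 at the other stages. The 2-cell arrays were spread, with member medians of -2.12, -1.94, -1.17 and -0.85. The array with the most features at the lower limit had the lowest member median of its group in 14 of the 19 groups, and the part of array quality in the level of the members was not tested.

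**Figure D1:**
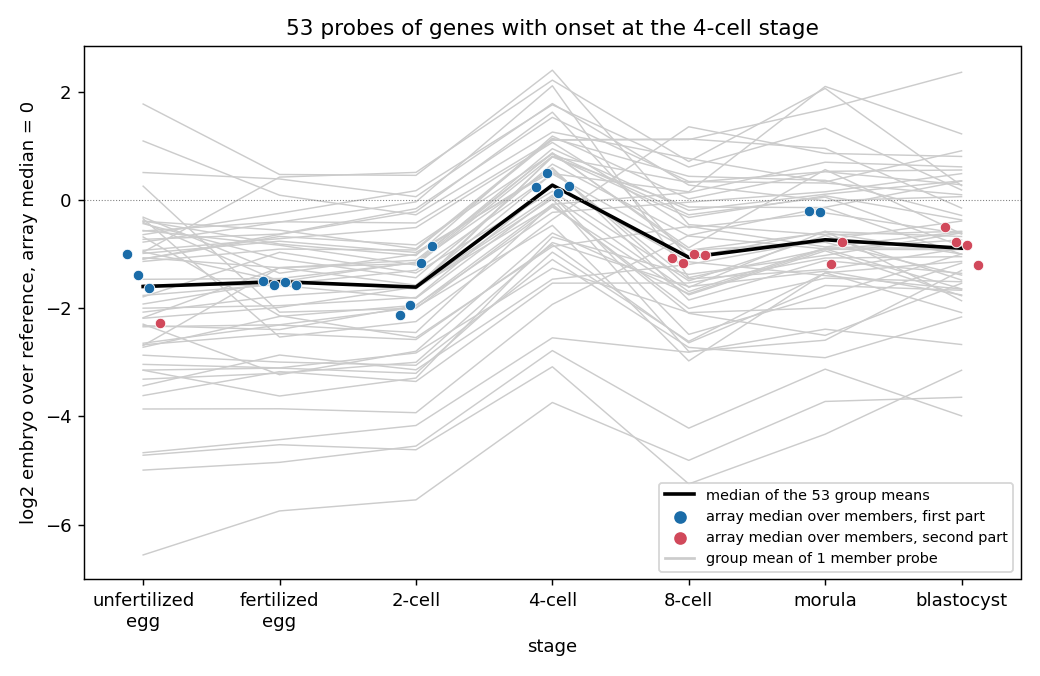
Level of the 53 member probes through 7 stages of the stage set, as log2 embryo over reference with each array's median at 0. Grey lines are group means of 1 probe each (4 arrays), the black line is the median of these means, and points are the member medians of single arrays, blue in the first and red in the second part of the stage arrays. The medians lie near -1.5 up to the 2-cell stage, at 0.29 in 4-cell embryos and lower at all later stages, and within morulae the blue points lie above the red ones.

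The difference of 4-cell minus 2-cell embryos ranged from 1.502 to 2.61 log2 units, with a median of 1.82, where the median over all probes was -0.11. In 48 of 53 members all 4-cell arrays lay above all 2-cell arrays, against 10.7% of all probes. The other 5 were Kdm4c, Arid4b, Ndrg3, Wnk1 and Ywhae. In 6 members the difference moved by over 1.5 times when 1 array was left out. Without 2-cell array 1 it was 0.96 for Kdm4c, 1.13 for Ppm1b, 1.295 for Patz1, 1.05 for Arid4b and 1.14 for Ndrg3, and without 2-cell array 2 it was 1.02 for Pkm. In whole embryos, fewer cells with a transcript and less of it per cell cannot be told apart. The members just inside the upper threshold were Ube2e3 (1.502), Ywhae (1.51) and Phb2 (1.52), and those just outside were Topbp1 (1.49), Gapdh (1.49) and Meaf6 (1.47). For the flat interval, Dysf, Psmc4 and Serbp1 lay just inside with 2-cell minus fertilized egg differences of 0.47, 0.44 and 0.43, and Aspg, Pebp1 and Zmpste24 just outside with 0.55, 0.58 and 0.61. At its lower end Marchf7, Ywhae and Mcrs1 lay inside with -0.41, -0.38 and -0.37, and Agtrap, Ppp1r15b and Pla2g12a outside with -0.55, -0.57 and -0.60.

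Of the genes that handle RNA and protein synthesis, G3bp1 had the largest difference of the module. Its levels were -0.45, -0.83, -1.01 and -0.44 in 4-cell embryos, against -4.14, -4.24, -2.44 and -2.35 in 2-cell embryos, a difference of 2.61. The 2-cell arrays fell into a low and a higher pair, and all 4-cell arrays lay above both. Serbp1, an mRNA-binding protein found on ribosomes, stood at -0.33, -0.81, -0.88 and -0.41 in 4-cell embryos, against -3.49, -3.27, -2.30 and -2.12 in 2-cell embryos (difference 2.19). Paip2, an inhibitor of the poly(A)-binding protein, the elongation factor Eef2 and the zinc-finger RNA-binding protein Cnbp differed by 1.58 to 1.78. Of the splicing and RNA processing genes, both probes of Prpf31, a protein of the U4/U6 small nuclear ribonucleoprotein, differed by 1.69 and 1.59. Srsf11, a serine- and arginine-rich splicing factor, differed by 1.75, and Ints5, a subunit of the Integrator complex, by 1.76.

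In nuclear transport and the nuclear envelope, Ranbp3, a cofactor of nuclear export, had 2.28, 1.92, 1.99 and 2.26 in 4-cell embryos, against -0.54, -0.80, 0.73 and 0.47 in 2-cell embryos (difference 2.15). Without the block its mean in 8-cell embryos was below that of every earlier stage, with arrays at -1.53, -1.46, -1.39 and -1.35. Its 8-cell minus 2-cell difference was -1.40 without the block and -0.30 with it, where 2-cell minus fertilized egg was 0.37. With the block it thus did not lie below fertilized eggs. Tmpo, a lamina-associated protein of the inner nuclear membrane, had -0.91, -0.87, -1.20 and -0.87 in 4-cell embryos, against -3.43, -3.87, -2.87 and -2.63 in 2-cell embryos (difference 2.24). Ran, the small GTPase that gives nuclear transport its direction, differed by 1.62.

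The 10 members that act on chromatin or transcription were the histone demethylase Kdm4c, the histone methyltransferase Ehmt1, the corepressor subunits Mbd3 and Arid4b, the elongation complex subunit Aff4, the zinc-finger factor Patz1, the nucleolar protein Mcrs1, the histone H2bc22, the protease Tasp1, which cleaves transcriptional regulators, and the nuclear kinase anchor Akap8. Their differences were 1.53 to 2.37. Kdm4c rested on few arrays: it had 0.12, 0.68, -1.19 and 0.09 in 4-cell embryos, against -6.68, -1.57, -1.17 and -0.37 in 2-cell embryos, where the first value sat at the lower limit of the scale. Its groups overlapped, and the difference was 2.37 with that array and 0.96 without it.

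Mitochondrial proteins were represented by Clpx, the unfoldase of a matrix protease, the inner membrane protease Yme1l1, the prohibitin Phb2 and the flavoprotein Aifm1, with differences of 1.52 to 2.04. The 5 members of the ubiquitin, proteasome and autophagy routes were led by Map1lc3b. It had 0.87, 0.79, 0.71 and 0.86 in 4-cell embryos, against -2.36, -2.33, -0.95 and -0.92 in 2-cell embryos, a difference of 2.45. Cul9, a ubiquitin ligase scaffold, had 1.05, 1.32, 1.23 and 1.14 in 4-cell embryos, against -2.15, -1.001, -0.37 and -0.57 in 2-cell embryos (2.21). In both genes the 4-cell arrays were close together and clear of the 2-cell arrays. The proteasome ATPase Psmc4, the ubiquitin ligase Marchf7 and the ubiquitin-conjugating enzyme Ube2e3 differed by 1.502 to 1.87.

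The metabolic enzymes were 3. Nudt4, which hydrolyses inositol pyrophosphates, had -0.58, -0.81, -1.29 and -0.46 in 4-cell embryos, against -3.20, -3.12, -2.76 and -2.90 in 2-cell embryos (2.21), with no overlap. Tk1, the thymidine kinase of the nucleotide salvage route, differed by 2.10 and Pkm, the pyruvate kinase of the last step of glycolysis, by 1.53. Among signalling genes, Pik3cb, a catalytic subunit of phosphoinositide 3-kinase, had 0.72, 0.93, 0.31 and 0.70 in 4-cell embryos, against -3.14, -1.05, -0.94 and -0.61 in 2-cell embryos (2.10). The phosphatase Ppm1b, the diacylglycerol kinase Dgke, the kinase Wnk1, the phosphoprotein-binding adaptor Ywhae, Ndrg3, the NAD-cleaving enzyme Sarm1 and the Rap effector Radil differed by 1.51 to 2.06. The 2.06 was that of Ppm1b, whose 2-cell arrays lay at -4.37, -1.02, -0.64 and -0.27, and without the first of them it was 1.13.

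The 10 membrane and cell surface genes were Tmem37, Tmem59, Tmem131l, the regulator of store-operated calcium entry Saraf, the palmitoyltransferase Zdhhc3, the glycosyltransferase Galnt1, the proteoglycan Cspg4, the secreted glycoprotein Mfge8, the immunoglobulin receptor Fcgr1 and the membrane repair protein Dysf. Tmem37 had 0.75, 0.66, 0.71 and 1.08 in 4-cell embryos, against -1.71, -0.89, -3.07 and -0.76 in 2-cell embryos (2.41). Its 4-cell arrays were again close together, while its 2-cell arrays were spread. Saraf had its highest mean in unfertilized eggs, with arrays at 0.27, 0.81, 1.19 and -1.23. Its fertilized egg arrays lay at -2.26, -1.85, -1.97 and -2.21. Fertilized minus unfertilized egg gave -2.33 for Saraf, -2.19 for Tmem59, -1.46 for Marchf7 and -1.30 for Dgke. It gave -1.10 for Tmem131l, -1.04 for Cnbp and -1.003 for Ehmt1. In these genes the 4-cell stage was not the first with a higher level. Of the 53 members, 20 were lower and 33 higher in fertilized than in unfertilized eggs. The filament-forming GTPase Septin3 was the only cytoskeletal member and differed by 1.68.

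**Figure D2:**
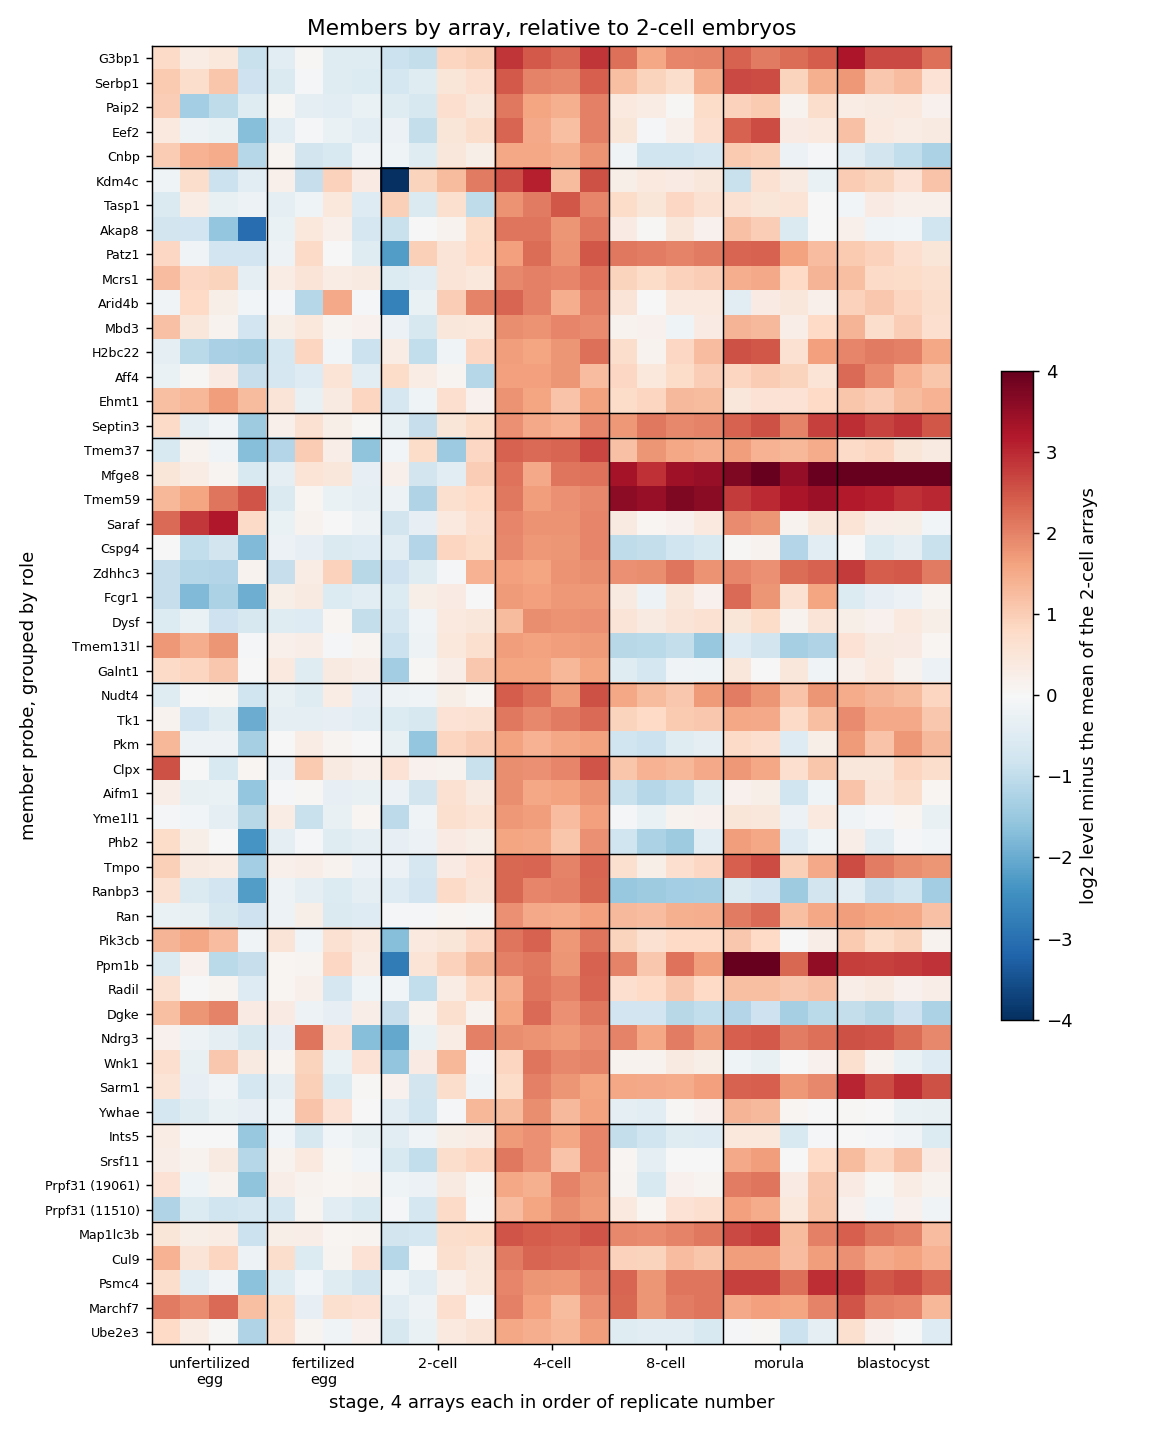
Each of the 53 member probes (rows, grouped by role) on each of the 28 stage arrays (columns), as log2 level minus the mean of the 4 2-cell arrays, from -4 (blue) to 4 (red). The 4-cell columns are red throughout, and most rows are paler from the 8-cell stage on. Mfge8, Tmem59, Ppm1b, Sarm1, Septin3, G3bp1, Psmc4, Zdhhc3, Ndrg3 and Tmpo are among the rows that remain red in blastocysts.

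The fate of the members after the 4-cell stage is described first against the stages that chose them, without a test. In 38 of 53 members the 4-cell mean was the highest of the 7 stages, which the rule favours. These group means were taken without the block. The highest mean fell in blastocysts for 8 members, in 8-cell embryos for 3, in morulae for 3 and in unfertilized eggs for 1. The median difference of 8-cell minus 4-cell embryos was -1.33, with 44 members lower, and -0.31 with 39 lower when the part of the stage arrays was a block. Blastocysts minus 4-cell embryos gave -1.21 with 41 lower, and -0.22 with 30 lower with the block. Morula arrays 1 and 2, which lie in the same part as the 4-cell arrays, differed from them by a median of -0.53, with 35 members lower. The median lay below 0 in each of these, a direction that the rule favours, since it chose high 4-cell values. The size of this median differed with the block. The size of the difference from 4-cell embryos and the part of the arrays therefore cannot be told apart.

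Relative to 2-cell embryos most members had higher means at later stages, which the rule favours, since it chose members by low 2-cell values. It also favours the counts below of arrays above all 2-cell arrays, and of 4-cell arrays above all later ones. The median difference of blastocysts minus 2-cell embryos was 0.78 with 43 members higher, and 1.68 with 51 higher with the block, while morula arrays 1 and 2 minus 2-cell embryos gave 1.54 with 47 higher. The median over all probes was -0.08, -0.08 and -0.07. All blastocyst arrays lay above all 2-cell arrays in 21 members, against 18.9% of all probes, all morula arrays did so in 23, against 7.41%, and all 8-cell arrays in 19, against 19.7%. With the block, all 21 and all 19 of these kept a positive difference, which the block itself favours. The member median went from 0.78 to 1.68 for blastocysts minus 2-cell embryos. For 8-cell minus 2-cell embryos it went from 0.59 to 1.29. All 4-cell arrays lay above all 8-cell arrays in 42 members (26.8% of all probes) and above all blastocyst arrays in 35 (20.6%). With the block, 37 of the 42 and 28 of the 35 kept the later stage lower, and in morula arrays 1 and 2 the mean lay below that of 4-cell embryos in 33 and 29 of them.

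By role, the 5 genes of the ubiquitin, proteasome and autophagy routes all had a higher mean in blastocysts than in 2-cell embryos, by 0.08 to 2.56, and by 1.12 to 3.37 with the block. So had the 3 metabolic enzymes, by 1.25 to 1.503, and by 1.79 to 2.66 with the block. With the block this was not particular to these roles: all members were higher in every role but signalling, where 6 of 8 were. Of the 10 chromatin and transcription genes 9 were higher without the block and 10 with it. The one that turned was Akap8, with a difference of -0.21 without the block, 1.44 with it and 1.08 in morula arrays 1 and 2. The medians of the splicing and mitochondrial genes, over 4 probes each, were 0.11 and 0.26 without the block, 1.34 and 1.46 with it, and 1.58 and 1.05 in morula arrays 1 and 2. The widest range was in the membrane group, from -0.46 for Cspg4 to 4.28 for Mfge8, and with the block from 0.455 for Dysf to 4.73 for Mfge8.

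In 8 members all blastocyst arrays lay above all 4-cell arrays, against 22.9% of all probes: Mfge8, Tmem59, Psmc4, Zdhhc3, Septin3, Ndrg3, Sarm1 and Ppm1b. The mean of morula arrays 1 and 2 also lay above that of 4-cell embryos in all 8. With the block 7 kept a positive difference, a direction that the block favours, while Zdhhc3 was at -0.04. Mfge8, known for linking dying cells and vesicles to integrins, had -3.72, -4.68, -4.37 and -2.95 in 2-cell embryos, -1.76, -2.41, -1.79 and -1.75 in 4-cell embryos, -0.59, -0.999, -0.55 and -0.46 in 8-cell embryos, -0.20, 0.05, -0.41 and 0.03 in morulae and 0.71, 0.25, 0.36 and 0.09 in blastocysts. Its mean was thus higher at each of these stages than at the one before it, and its morula arrays of both parts overlapped. Blastocysts minus 4-cell embryos gave 2.28 for Mfge8, and 2.73 with the block. Tmem59, a Golgi membrane protein, had -0.12, -0.58, -0.41 and -0.32 in 4-cell embryos, 1.32, 1.25, 1.497 and 1.35 in 8-cell embryos and 0.91, 0.87, 0.66 and 0.78 in blastocysts, so that both later stages lay above the 4-cell arrays. Its differences from 4-cell embryos were 1.71 in 8-cell embryos and 1.165 in blastocysts, and 1.10 and 0.55 with the block. Psmc4 had 0.91, 0.54, 0.64 and 0.37 in blastocysts, against 0.01, -0.19, -0.21 and 0.08 in 4-cell embryos, a difference of 0.69, and 1.502 with the block.

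At the other end, Dgke, Ranbp3, Cnbp and Cspg4 had lower means in blastocysts than in 2-cell embryos, with differences of -1.03, -0.88, -0.86 and -0.46 log2 units. Of these, only Dgke stayed lower with the block (-0.35), where Ranbp3 was at 0.22, Cnbp at 0.84 and Cspg4 at 0.56. In morula arrays 1 and 2 minus 2-cell embryos the differences were -1.002 for Dgke, -0.67 for Ranbp3, 1.001 for Cnbp and 0.09 for Cspg4. Dgke, which phosphorylates diacylglycerol, had 2.04, 2.74, 2.28 and 2.55 in 4-cell embryos, -0.32, -0.32, -0.66 and -0.51 in 8-cell embryos, -0.70, -0.38, -0.87 and -0.61 in morulae and -0.49, -0.65, -0.36 and -0.81 in blastocysts. Its morula arrays of the first part, -0.70 and -0.38, lay below all 4-cell arrays, as did those of the second part, -0.87 and -0.61. From the 8-cell stage on every array lay below the reference, while its mean in unfertilized eggs, fertilized eggs and 2-cell embryos lay above it.

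**Figure D3:**
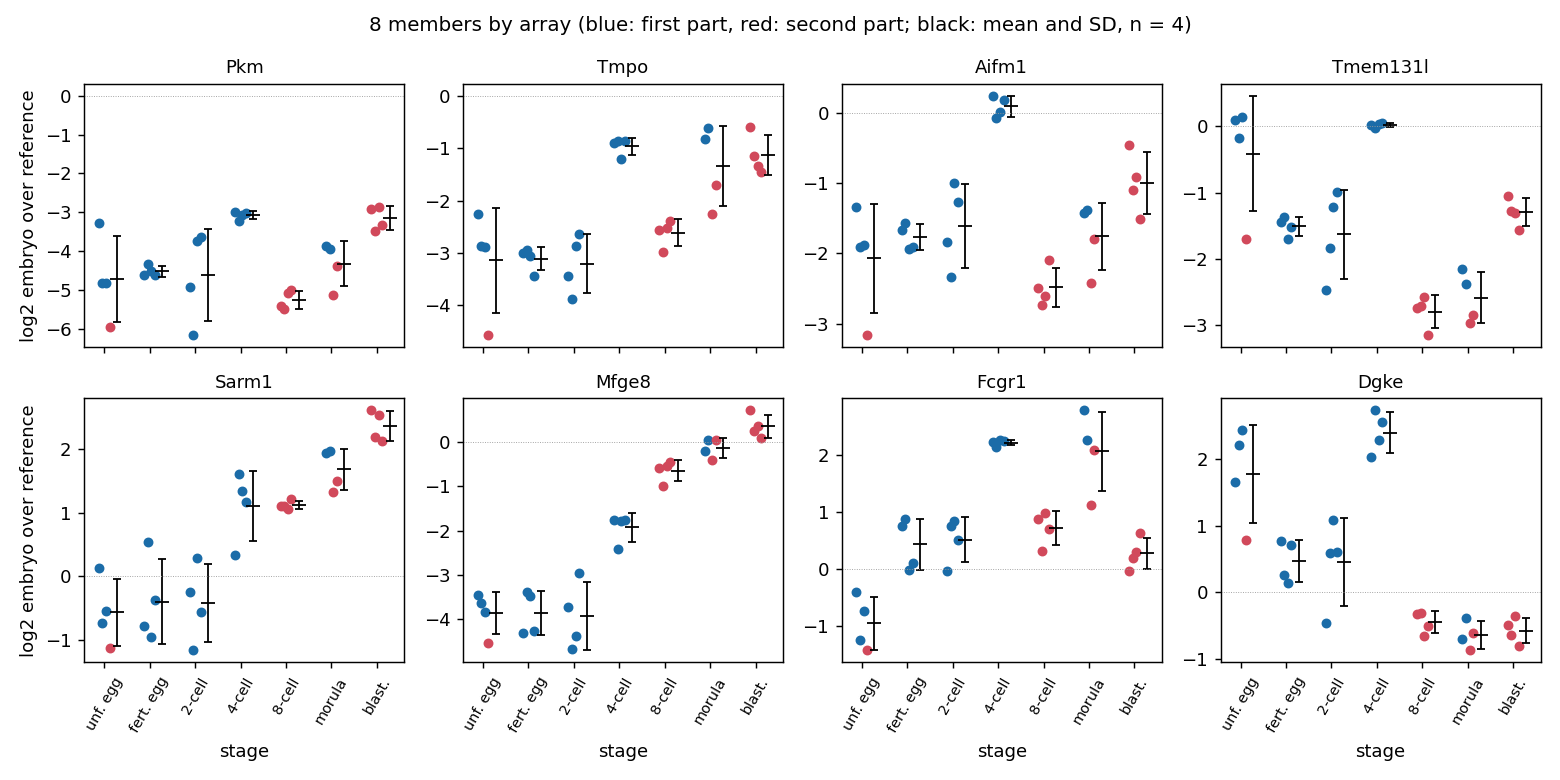
Levels of 8 members on every stage array, as log2 embryo over reference, with blue points for the first and red points for the second part of the stage arrays and black bars for mean and SD (n = 4). Mfge8 and Sarm1 are highest in blastocysts, Dgke and Fcgr1 are lower in blastocysts than in 4-cell embryos, and the group means of Pkm, Tmpo, Aifm1 and Tmem131l, for the member probe of each, are lower in 8-cell embryos than in 4-cell embryos and in blastocysts.

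Comparisons among 8-cell embryos, morulae and blastocysts do not share arrays with the rule and were tested with limma over all 22575 probes. Between blastocysts and 8-cell embryos, whose arrays all lie in the second part, 5 members were higher (3.65% of all probes) and 0 were lower (0.337%). No member passed as lower in this limma fit, where 13 members had an unadjusted p under 0.05 in either direction. The member median was 0.26, against -0.04 over all probes. Pkm had -2.91, -3.47, -2.87 and -3.33 in blastocysts, against -5.42, -5.48, -5.09 and -5.01 in 8-cell embryos. All blastocyst arrays lay clear of the 8-cell arrays, a 4.29-fold difference (log2 2.10 ± 0.44 SE, limma adjusted p = 0.00417).

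Tmem131l, a membrane protein, had -1.05, -1.27, -1.30 and -1.57 in blastocysts, against -2.75, -2.71, -2.58 and -3.16 in 8-cell embryos (log2 1.499 ± 0.32 SE, limma adjusted p = 0.00472). Aifm1, a flavoprotein needed for the respiratory chain and known as a death effector when released, had -0.46, -1.10, -0.91 and -1.52 in blastocysts, against -2.50, -2.73, -2.60 and -2.10 in 8-cell embryos (log2 1.49 ± 0.32 SE, limma adjusted p = 0.00535). These 3 genes kept their call under all 15 alternatives tried. Tmpo was higher by 1.48 ± 0.38 (limma adjusted p = 0.0211) and Sarm1 by 1.24 ± 0.33 (limma adjusted p = 0.0261). Their blastocyst and 8-cell arrays did not overlap either, while leaving out 1 array ended the call of Tmpo in 3 of the 8 leave-outs and that of Sarm1 in 6.

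For the member probes of Pkm, Tmem131l, Aifm1 and Tmpo the 8-cell mean lay below both the 4-cell and the blastocyst mean. With the block, 8-cell minus 4-cell embryos gave -0.97 for Pkm, -1.72 for Tmem131l, -1.55 for Aifm1 and -0.11 for Tmpo, for which it was -1.65 without the block. The other probes of Tmpo did not show one pattern: probe 18192 had means of -1.96 in 4-cell embryos, 0.79 in 8-cell embryos and 0.32 in blastocysts, and probe 4867 had -2.17, -4.47 and -3.81. Between blastocysts and 8-cell embryos these probes differed by -0.47 and 0.66, neither past the threshold (limma adjusted p = 0.793 and 0.685). The 4-cell mean of Pkm was -3.08 ± 0.10, the 8-cell mean -5.25 ± 0.23, the morula mean -4.33 ± 0.58 and the blastocyst mean -3.15 ± 0.30 (SD, n = 4 each). The step from 4-cell to 8-cell embryos crosses the parts of the stage arrays, and the step from 8-cell embryos to blastocysts does not. A fit of the second part alone, where the standard error for Pkm was 0.21, called 23 members, 18 higher (11.5% of all probes) and 5 lower (4.26%). The further genes higher in blastocysts were H2bc22, Ppm1b, Mfge8, Srsf11, Aff4, Phb2, Septin3, Mbd3, G3bp1, Arid4b, Kdm4c, Cul9 and Zdhhc3, by 0.53 to 1.17 log2 units. The 5 lower were Patz1, by -1.28, Tmem37, by -0.87, Clpx, by -0.72, Radil, by -0.58, and Tmem59, by -0.55. The other probe of Patz1 had means of 0.53 in 8-cell embryos and 0.54 in blastocysts. That of G3bp1 had 0.61 and 0.63, and that of Zdhhc3 3.38 and 2.99. Higher in blastocysts were the other probes of Cul9 (-2.46 and -1.12), Srsf11 (-1.29 and -0.23) and Arid4b (-1.07 and -0.53), and all those of Ppm1b.

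Between morulae and 8-cell embryos 4 members were higher (3.51% of all probes) and 0 lower (1.55%), with 15 at an unadjusted p under 0.05 in limma: Ppm1b, Phb2, Prpf31 by its probe 19061, and Fcgr1, by 1.35 to 1.95 log2 units (limma adjusted p from 0.0227 to 0.0485). With the part as a block, or within the second part, 0 of them passed, and without morula array 3 the count was 14. Ppm1b had 3.02, 2.68, 0.72 and 1.98 in morulae, against 0.41, -0.50, 0.61 and 0.09 in 8-cell embryos, so that the morula arrays of the first part were the highest. Phb2 had -0.30, -0.42, -2.49 and -2.17 in morulae, against -2.78, -3.25, -3.41 and -2.44 in 8-cell embryos, and its groups overlapped. Of the other probes of Ppm1b, probe 6314 was higher by 2.02 (limma adjusted p = 0.0104), while 2 others differed by 0.73 and 0.84 (limma adjusted p = 0.235 and 0.127). Those of Fcgr1 differed by 0.07 and 0.13 (limma adjusted p = 0.944 and 0.854).

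Between blastocysts and morulae 1 member was higher (0.846%) and 2 were lower (0.478%). Fcgr1, the high-affinity receptor for immunoglobulin G, had -0.04, 0.19, 0.29 and 0.63 in blastocysts, against 2.78, 2.27, 1.12 and 2.09 in morulae. The groups did not overlap (log2 -1.80 ± 0.30 SE, limma adjusted p = 0.000993), and the call held under all 15 alternatives, the fit within the second part included. It was that of the member probe alone: the other probes of Fcgr1 differed by -0.26 and 0.20 (limma adjusted p = 0.86 and 0.848). Probe 11510 of Prpf31 was lower by -1.14 (limma adjusted p = 0.033) and lost the call with the part as a block and within the second part, among others. Tmem131l was higher by 1.29 (limma adjusted p = 0.0384) and lost the call in 8 alternatives, 7 of them leaving out 1 array.

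Gene lists of related functions were counted beside the whole table, in which 52 of 3089 genes (1.68%) were members. Of 9 measured proteasome genes 1 was a member (Psmc4), of 23 splicing genes 2 (Prpf31, Srsf11), of 15 nuclear transport genes 1 (Ran), of 13 genes of glycolysis and the TCA cycle 1 (Pkm), of 8 nucleotide synthesis genes 1 (Tk1) and of 24 chromatin regulators 1 (Ehmt1). These lists are shorter than the roles used above: Kdm4c, Mbd3 and Arid4b are not in the chromatin list, nor is Ranbp3 in that of nuclear transport. Between blastocysts and 8-cell embryos, 1 of 10 proteasome probes, 1 of 37 splicing probes, 0 of 24 nuclear transport probes, 2 of 14 glycolysis and TCA cycle probes, 2 of 9 nucleotide synthesis probes and 4 of 41 chromatin probes passed as higher, and 0 of any of these as lower. The lists with no member were aminoacyl-tRNA synthetases (1 of 7 probes higher), RNA polymerase and general transcription (0 of 14), respiratory chain (2 of 12), DNA replication and cell cycle (1 of 27), secretory traffic (1 of 28), actin, tubulin, junction and adhesion (14 of 46), redox and detoxification (1 of 9) and sterol and lipid (4 of 22), with 0 lower. Psmc4 was at 0.61 ± 0.23 in blastocysts and 0.14 ± 0.22 in 8-cell embryos, Tk1 at 0.36 ± 0.33 and -0.19 ± 0.14, Ran at -2.67 ± 0.22 and -2.81 ± 0.11, and Ehmt1 at 0.91 ± 0.17 and 0.77 ± 0.28 (SD, n = 4 each), none past the threshold.

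The same gene was measured by other probes with 1 symbol in 21 of the 52 genes, 30 probes in all. Their median difference between 4-cell and 2-cell embryos was 0.48, against -0.05 over all probes with 1 symbol, 18 were higher and 12 lower, and 2 reached 1.5. Those 2 were probe 19615 of Ran (2.21) and probe 9350 of Akap8 (1.60). Both stayed outside the module because their 2-cell means lay 0.83 and 0.84 above the fertilized egg, over the 0.5 allowed. For G3bp1, Mcrs1 and Eef2 the other probe was lower in 4-cell embryos, by -0.67, -0.68 and -0.55. So was that of Patz1 (-0.35), Zdhhc3 (-0.33), Galnt1 (-0.27), Arid4b (-0.14) and Srsf11 (-0.06). The other probes of Map1lc3b gave -0.29 and 0.08, those of Tmpo 0.54 and -0.32, and those of Fcgr1 -0.12 and 0.54. Of Wnk1, with 4 other probes, the differences were 1.36, 0.85, 0.51 and -0.03, and of Ppm1b 1.14, 0.48 and 0.39, with 2-cell minus fertilized egg differences of -1.16 to -2.42. For these genes the pattern that defines the module is that of the member probe. For 31 genes there was no other probe.

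**Figure D4:**
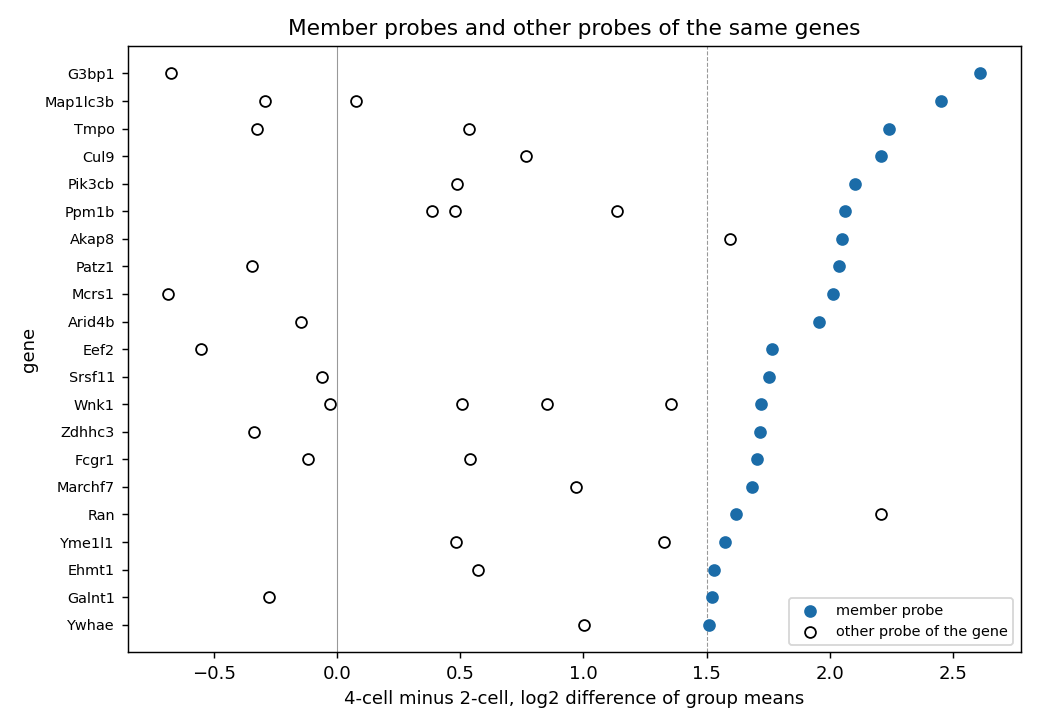
Difference of 4-cell minus 2-cell group means, in log2 units, for the member probe (filled) and the other probes with 1 symbol (open) of the 21 genes that have any. The dashed line marks the threshold of 1.5 that chose the members, and 2 of the 30 open points lie beyond it.

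In the treatment set, which the rule did not use, the median of the members was low throughout the 1-cell and 2-cell hours, while single members were not. The member median was -1.97 ± 0.58 at 21 h, -1.81 ± 0.22 at 32 h, -2.12 ± 0.30 at 43 h and -2.06 ± 0.30 at 54 h in controls (SD, n = 3 each), so the spread between arrays covered the differences of the median between hours. By their means in controls, 4 members lay above the reference at 21 h, 6 at 32 h, 6 at 43 h and 9 at 54 h. Ppm1b had means of -1.15, 0.41 and 1.48, Sarm1 of 0.40, 1.24 and 2.31 and Tmem37 of -2.38, -0.94 and 0.01 at 32, 43 and 54 h, so these means were higher at 54 h than at 32 h, a difference that was not tested. Between 54 h and 43 h controls 1 member was higher (1.46% of all probes) and 0 lower (1.33%), with 10 at an unadjusted p under 0.05 in limma. This was Aifm1, at -2.38, -1.76 and -2.08 at 54 h, against -3.91, -2.60 and -4.05 at 43 h (log2 1.45 ± 0.39 SE, limma adjusted p = 0.0416), and leaving out any 54 h control array, or 43 h control array 1 or 3, or fitting the groups compared alone, ended the call.

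Between 43 h and 32 h controls 1 member was higher (0.23%) and 3 were lower (2.16%). Cnbp had -4.12, -3.22 and -4.30 at 43 h, against -2.18, -1.87 and -2.03 at 32 h (log2 -1.85 ± 0.36 SE, limma adjusted p = 0.00304), and kept its call under all 11 alternatives. Ehmt1 had -1.02, -0.79 and -1.06 at 43 h, against 0.87, 0.46 and 1.04 at 32 h (log2 -1.74 ± 0.40 SE, limma adjusted p = 0.0119). Both genes were thus lower in early 2-cell than in late 1-cell embryos with no overlap between arrays. The call of Ehmt1 was ended by 3 of 11 alternatives, and its other probe differed by -0.36 (limma adjusted p = 0.83). Probe 19061 of Prpf31 was lower by -1.35 (limma adjusted p = 0.0226), a call that 4 of 11 alternatives ended. The other member probe of Prpf31, 11510, differed by -0.12 (limma adjusted p = 0.968). Tmem37 was higher by 1.45 (limma adjusted p = 0.0459), a call that 8 of 11 alternatives ended.

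With AM, 6 members were lower at 54 h than in 54 h controls (3.9% of all probes) and 0 were higher (0.966%), with 13 members at an unadjusted p under 0.05 in limma. The member median was -0.20, against 0.00 over all probes. This comparison shares its control arrays with that of 54 h and 43 h controls. Dgke had -1.63, -0.73 and -0.25 with AM, against 1.11, 1.67 and 1.66 in controls, a 5.1-fold lower level (log2 -2.35 ± 0.43 SE, limma adjusted p = 0.000711). Ppm1b had -0.94, -0.95 and -0.47 with AM, against 1.73, 1.29 and 1.41 in controls (log2 -2.27 ± 0.50 SE, limma adjusted p = 0.00488). Sarm1 had 0.65, 0.08 and 0.87 with AM, against 2.53, 2.43 and 1.97 in controls (log2 -1.78 ± 0.40 SE, limma adjusted p = 0.00578). These 3 genes kept the call under all 11 alternatives, and no array with AM overlapped a control array.

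Aifm1 had -4.66, -4.59 and -3.16 with AM, against -2.38, -1.76 and -2.08 in controls (log2 -2.06 ± 0.39 SE, limma adjusted p = 0.00114), and lost the call in a fit of the groups compared alone. Tmem37 had -2.21, -1.46 and -0.80 with AM, against -0.35, 0.18 and 0.21 in controls (log2 -1.503 ± 0.40 SE, limma adjusted p = 0.0217), a call that 5 of 11 alternatives ended. Fcgr1 had -6.71, -1.16 and -2.31 with AM, against 0.85, 1.63 and 1.48 in controls (log2 -4.71 ± 1.08 SE, limma adjusted p = 0.00714). Its first AM value sat at the lower limit of the scale. Without that array the difference was -3.05 and the call was lost, so that the size rests on 1 array. Of the other probes of these genes, those of Fcgr1 differed by 0.67 and 0.43, and those of Ppm1b by -0.215, 1.05 and 0.92 (limma adjusted p from 0.165 to 0.894), none past the threshold.

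At 43 h, AM and control arrays differed in 0 members and in 0 of all probes by limma (0.0%), where 718 probes and 0 members had an unadjusted p under 0.05. The difference between the AM effects at 54 h and at 43 h passed for 0 members and 4 probes of the table (0 higher, 0.0%, and 4 lower, 0.0177%), with 6 members at an unadjusted p under 0.05 in limma. An effect that differs between the hours was therefore not shown for any member. For Dgke the AM effect at 54 h minus that at 43 h was -1.96 ± 0.61 (SE, limma adjusted p = 0.296).

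**Figure D5:**
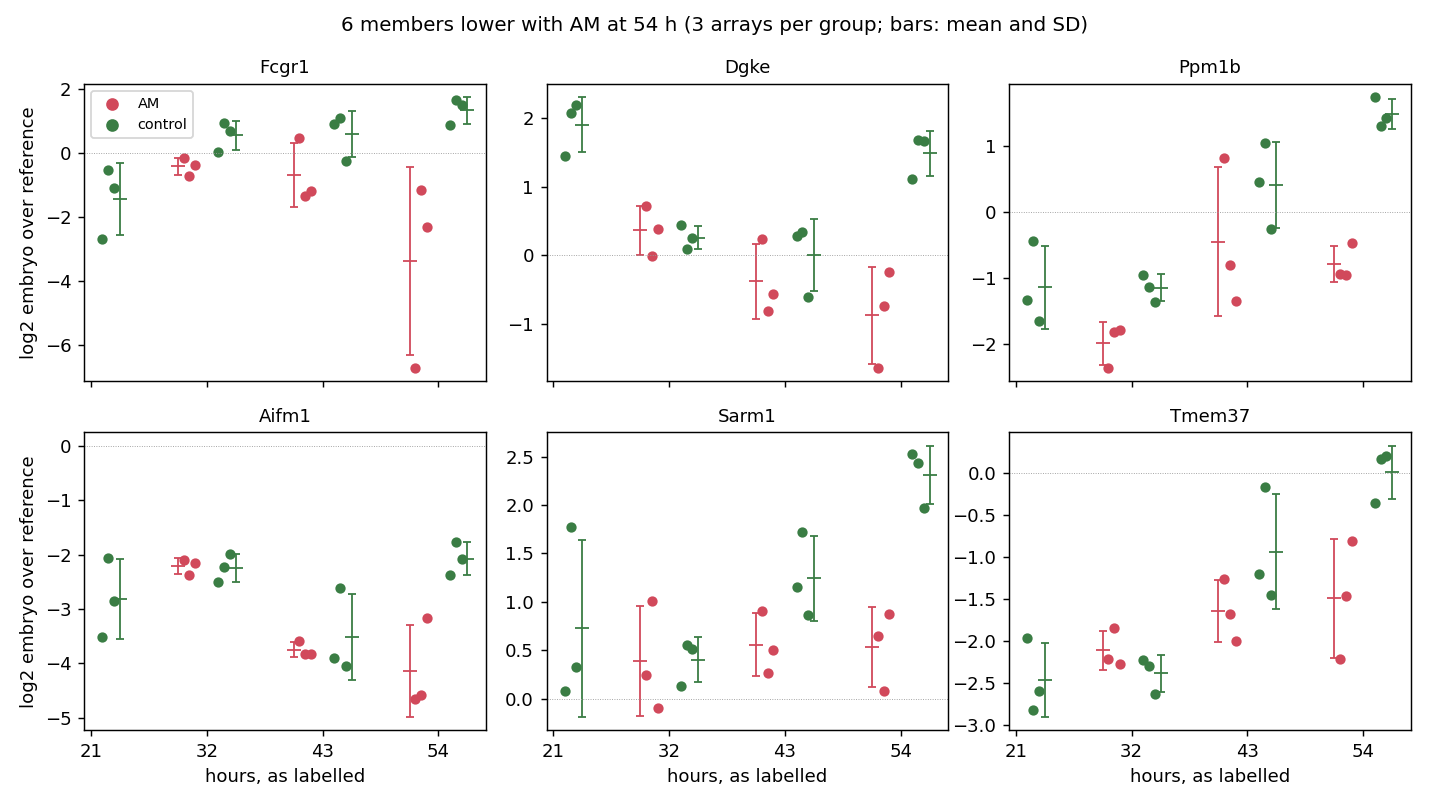
Levels of the 6 members that were lower with AM at 54 h, as log2 embryo over reference on each array (AM left of its control at each labelled hour, 3 arrays per group, bars for mean and SD). At 54 h the AM points of Dgke, Ppm1b, Sarm1, Aifm1, Tmem37 and Fcgr1 lie below the control points, and the lowest Fcgr1 point is at the limit of the scale.

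CHX and AC arrays at 43 h were described without a test. In 12 members all CHX arrays lay below all 43 h control arrays, as in 8.82% of all probes. Among them, Ube2e3 had -2.65 ± 0.26 with CHX and -0.69 ± 0.60 in controls, Cul9 -0.83 ± 0.58 and 0.59 ± 0.38, Tmem37 -2.34 ± 0.60 and -0.94 ± 0.68, and Paip2 -2.60 ± 0.25 and -1.26 ± 0.78 (SD, n = 3 each). The others were Zdhhc3, Fcgr1, Wnk1, Galnt1, Cspg4, Nudt4, Ehmt1 and Yme1l1, with differences from -2.24 to -0.46, of which Zdhhc3 had 1 CHX array at the limit. In 1 member, Ndrg3, all CHX arrays lay above all 43 h control arrays (14.6% of all probes).

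In 4 members all AC arrays lay below all DMSO arrays at 43 h, as in 5.31% of all probes. Patz1 had -1.24 ± 0.54 with AC and 0.52 ± 0.36 with DMSO, Tmem37 -1.40 ± 0.54 and -0.27 ± 0.48, Dgke -0.02 ± 0.60 and 1.05 ± 0.39, and Saraf -2.83 ± 0.39 and -2.11 ± 0.09 (SD, n = 3 each). In 0 members did all AC arrays lie above all DMSO arrays, as they did for 3.02% of all probes. Tmem37 was thus 1 member that lay apart from its control with AM at 54 h, with CHX at 43 h and with AC at 43 h.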

How the data were processed

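The authors deposited 1 table of 22575 probes by 64 arrays, read as log10 channel ratios held between -2 and 2. The log base was read from these limits, and 1.47% of values sat at a limit and 1.12% at exactly 0. The sources used here name no dyes, background correction or normalization, and per the labels only the groups, the replicate numbers and the name of the second channel are known. For this report the deposited log10 values were turned to log2 by a factor of 3.3219 with the sign turned, and each array was centred on its median. Probe names came from GEO's platform annotation (4262 with 1 symbol, 6822 with several, 11491 unnamed here), with 4247 matched by Entrez number and 0 symbols changed. Members and gene lists were chosen with earlier results of these data known, and roles were assigned after the members were listed.

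Each set was fitted apart with limma 3.58.1 in R 4.3.3 (lmFit, contrasts, eBayes; 1 mean per group, spread shared over the set), and a probe passed at a two-sided adjusted p (Benjamini-Hochberg, all probes) under 0.05. Stages used by the rule entered no tested contrast. The fits were tested on simulated data. Signal over background is unknown, and 14 of 3392 member values sat at a limit. The number of arrays limits the precision. Named genes were the 10 largest rises, members past the threshold in each comparison (in order of size, up to 8 a direction), members of a gene list, neighbours of the thresholds and genes with several probes. Saraf, Mfge8 and Tmem59 by array, the members separate between blastocysts and 4-cell embryos and those lower than in 2-cell embryos were chosen after their values were seen. So were the members named as lower in fertilized than in unfertilized eggs. Alternatives were other scalings, a filter on limited values, the groups compared alone, a block for replicate or part, and leaving out each array. The block for the part in differences from 2-cell and 4-cell embryos, the alternatives of the difference between AM effects and the rise of single members without each array were chosen after seeing the data.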

Additional observations from a re-analysis of the deposited data

Results flagged for a closer look

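In 5 of 161 groups of 4 arrays examined, 1 array stood far from the others of its group by Dixon's criterion, which chance gives in about 1 of 20 groups. They were G3bp1 in fertilized egg array 2 (-3.23, above the others), Tmpo in 4-cell array 3 (-1.20, below), Cul9 in morula array 3 (0.20, below), probe 19061 of Prpf31 in 8-cell array 2 (-1.45, below) and Cnbp in unfertilized egg array 4 (-2.14, below). Of these arrays, morula 3 and unfertilized egg 4 lie in the second part of the stage arrays beside others of their group in the first.

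In the CHX arrays, which enter no tested comparison, Ndrg3 was higher than in the 43 h controls by 1.10 log2 units, with means of -2.52 ± 0.08 with CHX and -3.62 ± 0.54 in controls (SD, n = 3 each). All CHX arrays lay above all control arrays, as they did for 14.6% of all probes.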

How the results depend on the processing

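The module itself moved with the choices that define it: 53 probes became 18 with a threshold of 2 and 35 to 73 when 1 of the 12 arrays behind the rule was left out, the low end without 2-cell array 1. Of members past the threshold, blastocysts minus 8-cell embryos gave 23 in the groups compared alone, 8 with the part as a block, 23 within the second part and 3 to 5 without 1 array (3 without 8-cell array 2 or blastocyst array 1), where 5 were given. Morulae minus 8-cell embryos gave 0 in the groups alone, with the block and within the second part, and 0 to 14 without 1 array: 14 without morula 3, 2 without 8-cell 1 and 0 without 8-cell 2, 3 or 4 or morula 1 or 2. Blastocysts minus morulae gave 6 after quantile normalization, 1 with the replicate block, 5 within the second part and 1 to 4 without 1 array, with 1 without morula 1 or 2 or blastocyst 1, 2 or 3. Controls at 54 h minus 43 h gave 2 as deposited, 2 in the groups alone and 0 to 1 without 1 array, and 43 h minus 32 h gave 7 as deposited, 9 after quantile normalization, 7 in the groups alone and 1 to 6 without 1 array. AM at 54 h gave 3 in the groups alone and 4 to 8 without 1 array, and at 43 h and for the difference between hours 0 in all. Over 23 single calls and their 300 alternatives, 208 kept the call, 92 lost it and 0 changed sign. The replicate numbers did not pair the arrays by their correlations in the stage set. In the treatment set every array correlated best with its own number for 43 h minus 32 h controls (0.338, 0.064 and 0.159) and for AM at 43 h (0.159, 0.106 and 0.09), and 2 of 3 did so for AM at 54 h and for 54 h minus 43 h controls, a hint from the data that the labels do not give. With the replicate block these comparisons gave 3, 0, 7 and 1 members. Apart from blastocysts minus morulae the replicate block moved no count by over 1.5 times. Causes were not tested.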
